A study of Sus scrofa with 2 samples.

Results

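The genes described here carry out antigen processing and presentation, the route by which cells show peptides to T cells. They were chosen by symbol from a table of expressed genes in piglet hippocampus, and 10 symbols were taken: PSMB8, PSMB9, ERAP1, TAP1, TAPBP, B2M, SLA-DQB1, CD74, CIITA and NLRC5. An Ensembl pig gene ID paired with one of these symbols was found among the 25322 gene IDs of the table for 7 of the 10. The symbols B2M, CD74 and NLRC5 matched no row, so they were not analysed here. Of the 7 genes with a row, 3 were listed at 0 in both samples, 1 was above 0 with a mean below 1 FPKM, and 3 had a mean of at least 1 FPKM. FPKM counts sequenced fragments for each kilobase of a transcript and relates them to the size of the library.

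RNA sequencing was done on the hippocampus, a forebrain region needed for memory, of Rongchang piglets, a pig breed whose genotype the labels give as wild type for both groups. One group was given iron dextran, an injectable iron preparation in which the metal is bound to the polysaccharide dextran, and the other was the control. Each group was 1 sample, and each sample label lists 2 names without saying whether these were animals or libraries. The sources used here give neither the dose nor the age or number of the animals. No difference below has a replicate check or a test. Markers of the tissue were present. SNAP25, a synaptic protein, had 952 FPKM in iron dextran and 1032 FPKM in control. C1QL2, a dentate granule cell marker, had 10.3 FPKM in iron dextran and 10.9 FPKM in control. Of the 6 tissue markers with a mean of at least 1 FPKM, 2 were higher in iron dextran and 4 lower. The 2 higher ones were CALB1 and C1QL3. CALB1 had 1.56 FPKM in iron dextran and 0.802 FPKM in control. C1QL3 had 16.5 FPKM in iron dextran and 11.5 FPKM in control. PROX1 and ZBTB20, also tissue markers, had a mean below 1 FPKM.

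Class I molecules of the major histocompatibility complex (MHC) present peptides cut from proteins inside the cell. Proteasomes make these peptides, a transporter carries them into the endoplasmic reticulum, aminopeptidases trim them, and chaperones load them onto a heavy chain paired with beta-2-microglobulin. Class II molecules present peptides from material that was taken up, and their expression is mostly kept to antigen-presenting cells, which in brain tissue are mainly microglia and the macrophages of its borders. In pigs the MHC is called SLA, for swine leukocyte antigen. Interferon gamma induces both routes, through the transactivators NLRC5 for class I and CIITA for class II.

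TAPBP and SLA-DQB1 had lower FPKM values in the iron dextran sample than in control, and ERAP1 and CIITA had higher ones. None of the 3 genes with a mean of at least 1 FPKM was 1.5-fold higher or lower on the log2(FPKM + 1) scale. This scale adds 1 FPKM to every value, which understates the change of low genes. Over all 12557 genes with such a mean, 3.94% were past 1.5-fold, with 2.47% higher and 1.47% lower in iron dextran. The median log2 difference, iron dextran minus control, was −0.26 over the 3 genes, against −0.0046 over all 12557 genes. With so few genes, this median is the value of TAPBP and describes these samples alone.

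**Figure D1:**
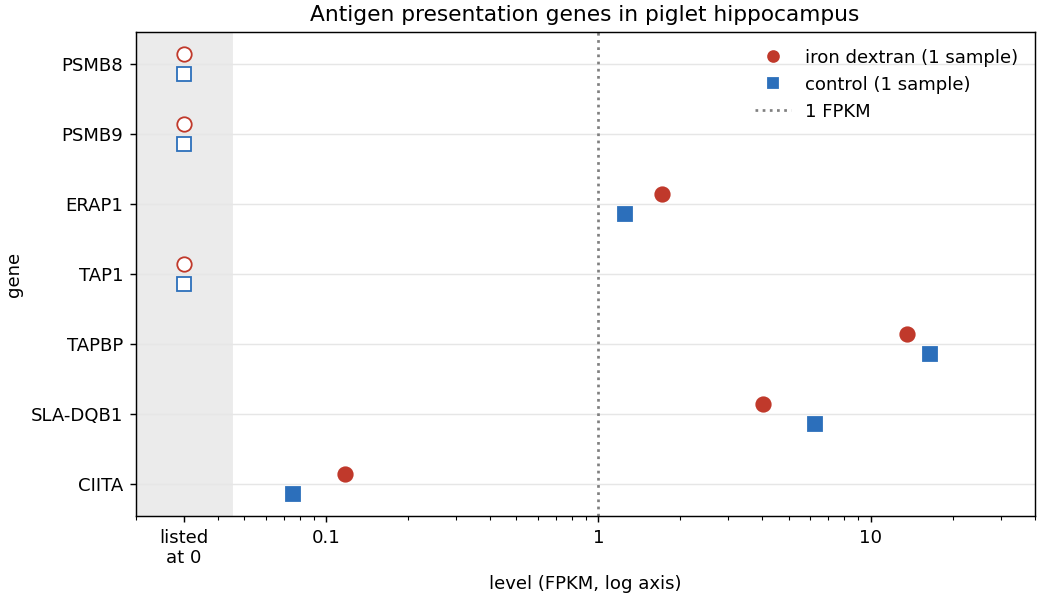
Level of each of the 7 genes with a row, in FPKM on a log axis, in the iron dextran sample (red circles) and the control sample (blue squares); open symbols in the grey strip are genes listed at 0. PSMB8, PSMB9 and TAP1 were listed at 0 in both samples, TAPBP was the highest at 13.6 FPKM in iron dextran and 16.6 FPKM in control, and CIITA lay far below 1 FPKM.

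The supply of peptides was represented by PSMB8, PSMB9 and ERAP1. PSMB8 (ENSSSCG00000026951) and PSMB9 (ENSSSCG00000001463) encode catalytic subunits of the immunoproteasome, the form of the proteasome that interferon gamma induces. Both were listed at 0 in iron dextran and at 0 in control. Genes that every cell uses, such as RPS21 of the ribosome and COX10 of haem A synthesis, were also listed at 0 in both samples, so a value of 0 here may reflect an estimate that failed. No fold is given for these genes. Among the 11804 IDs with a symbol, 8.41% were listed at 0 in both samples, and among all 25322 IDs the share was 31.1%. The genes described here were chosen with these values known, so nothing is read from 3 of 7.

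ERAP1 (ENSSSCG00000014171) encodes an aminopeptidase of the endoplasmic reticulum that trims peptides to the length that class I molecules bind. It had 1.71 FPKM in iron dextran and 1.26 FPKM in control, a ratio of iron dextran to control of 1.36. Its difference on the log2(FPKM + 1) scale was 0.27, which was above that of 87.7% of all genes with a mean of at least 1 FPKM. In the RefSeq order of protein-coding genes ERAP1 is followed by ERAP2 and LNPEP, its relatives in the same family of aminopeptidases. ERAP2 had 2.303 FPKM in iron dextran and 1.19 FPKM in control. It was the single gene of the wider lists of the pathway past 1.5-fold, with a fold of 1.506 on the log2(FPKM + 1) scale. With the columns centred on their median that fold was 1.47, and with rescaling by a trimmed mean it was 1.499. It was 1.597 with both columns scaled to the same total, 1.857 with a pseudocount of 0.1 and 1.921 with a pseudocount of 0.01. The 7 pathway lists held 9, 5, 6, 4, 9, 13 and 1 genes with a mean of at least 1 FPKM. Over all genes with such a mean 3.94% were past 1.5-fold, so nothing is read from the count of 1. LNPEP, which trims peptides in endosomes, had 0.381 FPKM in iron dextran and 0.132 FPKM in control and lay below the limit on low values. All 3 neighbours had the higher level in the iron dextran sample.

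The wider list of peptide supply genes, which includes PSMB8, PSMB9 and ERAP1, gave the setting for these values. Of 13 listed genes, 12 had a row and 9 had a mean of at least 1 FPKM, and of these 6 had a difference above 0 and 3 below 0. Their median log2 difference was 0.10, and 1 gene, ERAP2, was past 1.5-fold. With both columns scaled to the same total, all 9 were above 0, with a median of 0.21. The proteasome activator subunit PSME2 had 24.1 FPKM in iron dextran and 22.2 FPKM in control. Its partner PSME1 had 81.9 FPKM in iron dextran and 82.5 FPKM in control. NPEPPS, a cytosolic aminopeptidase, had 34.9 FPKM in iron dextran and 31.99 FPKM in control.

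The constitutive proteasome was read through 5 of 14 listed subunits with a row. All 5 had a difference below 0, with a median of −0.07, and none was past 1.5-fold. When both columns were scaled to the same total, 3 of these 5 were above 0 and 2 below, with a median of 0.05. The catalytic subunit PSMB7 had 228.5 FPKM in iron dextran and 265.04 FPKM in control, and PSMB1 had 264 FPKM in iron dextran and 288 FPKM in control. PSMA5, of the outer ring, had 96.7 FPKM in iron dextran and 101 FPKM in control. PSMB5 and PSMB6, the constitutive counterparts of PSMB8 and PSMB9, matched no row by their symbols. No level of the immunoproteasome can be set beside these values, since PSMB8 and PSMB9 were listed at 0.

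Transport and loading of class I molecules were represented by TAP1 and TAPBP. TAP1 (ENSSSCG00000025618) encodes one chain of the peptide transporter and was listed at 0 in both samples. TAP2, the other chain, had 0.151 FPKM in iron dextran and 0.241 FPKM in control, far below 1 FPKM. TAPBP (ENSSSCG00000001507) encodes tapasin, which bridges the transporter to class I molecules and edits their peptides. It had 13.6 FPKM in iron dextran and 16.6 FPKM in control, 1.21 times as much in control as in iron dextran. Its log2 difference was −0.26, and 8.95% of all genes with a mean of at least 1 FPKM had a lower one. TAPBP was the most abundant of the 7 genes in both samples, above 69.1% of the IDs with a value over 0 in iron dextran and above 72.7% in control.

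The other measured genes of class I chains and loading were more abundant than TAPBP and differed less. Of 22 listed genes of class I chains and loading, TAPBP included, 9 had a row and 6 had a mean of at least 1 FPKM. All 6 had a difference below 0, with a median of −0.11, and none was past 1.5-fold. With both columns scaled to the same total, 3 of these were above 0 and 3 below. TAPBPL, a relative of tapasin that also edits peptides, had 15.2 FPKM in iron dextran and 16.98 FPKM in control. The chaperone CALR had 276 FPKM in iron dextran and 302.003 FPKM in control. MR1, which presents vitamin B metabolites, was listed at 0 in iron dextran and had 0.0378 FPKM in control. The class I heavy chains of the SLA-1 to SLA-12 series matched no row by those symbols, so the molecules that TAP1, TAPBP and B2M serve were not analysed here.

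SLA-DQB1 (ENSSSCG00000001457), the beta chain of the class II molecule SLA-DQ, had the largest difference of the 7 genes on the log2(FPKM + 1) scale. It had 4.01 FPKM in iron dextran and 6.23 FPKM in control, 1.55 times as much in control as in iron dextran. On the log2(FPKM + 1) scale the difference was −0.53, which is 1.44-fold lower in iron dextran and short of the rule of 1.5-fold. Of all genes with a mean of at least 1 FPKM, 1.96% had a lower difference. Without a pseudocount SLA-DQB1 was past 1.5-fold, as were 7.20% of the 12495 genes with a mean of at least 1 FPKM and no value of 0. Class II beta chains form a family of near-identical genes and pseudogenes with many alleles, so the value of SLA-DQB1 depends on how shared fragments were assigned and is uncertain. In bulk tissue, fewer cells that express a gene and less of its RNA per cell cannot be told apart.

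**Figure D2:**
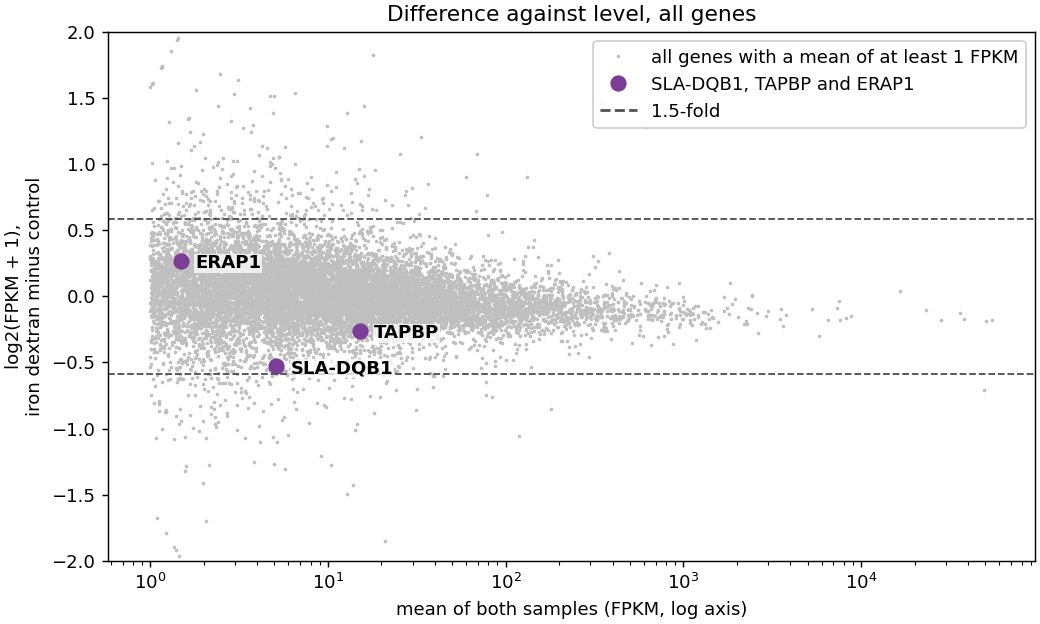
Difference in log2(FPKM + 1), iron dextran minus control, against the mean of both samples in FPKM (log axis), for the genes with a mean of at least 1 FPKM (grey); 51 genes beyond 2 log2 units are not drawn. SLA-DQB1, TAPBP and ERAP1 (purple) all lie between the dashed lines that mark 1.5-fold, with SLA-DQB1 closest to the lower one.

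The class II genes differed among themselves, and the list counts and medians given here include SLA-DQB1 itself. Of 12 listed genes, 6 had a row and 4 had a mean of at least 1 FPKM, and of these 1 was above 0 and 3 were below, with a median log2 difference of −0.18. With both columns scaled to the same total, 2 were above 0 and 2 below, with a median of −0.08. SLA-DRA, the alpha chain of the class II molecule SLA-DR, had 4.36 FPKM in iron dextran and 4.01 FPKM in control, opposite in direction to SLA-DQB1. SLA-DMA and SLA-DMB encode the chains of SLA-DM, which exchanges the invariant chain peptide for antigen in endosomes. SLA-DMA had 3.298 FPKM in iron dextran and 4.29 FPKM in control, and SLA-DMB had 11.7 FPKM in iron dextran and 12.2 FPKM in control. The chains of SLA-DO, a modulator of SLA-DM found mainly in B cells, were low. SLA-DOA had 0.0355 FPKM in iron dextran and 0.0375 FPKM in control, and SLA-DOB had 0.0716 FPKM in iron dextran and 0.1497 FPKM in control. None of the 4 genes with a mean of at least 1 FPKM was past 1.5-fold, and CD74, the invariant chain itself, was not analysed here.

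Several of these genes are neighbours in the MHC class II region, and their levels there were uneven. In the RefSeq gene order of a later pig assembly, 18 protein-coding genes run from SLA-DRA to RXRB, and 13 of them had a row in the table. TAP2, PSMB8, TAP1 and PSMB9 stand next to each other in that order. The 3 genes listed at 0 were therefore adjacent, flanked by TAP2 on one side and by BRD2 on the other. BRD2, a chromatin reader expressed in most tissues, had 67.2 FPKM in iron dextran and 66.2 FPKM in control, and RXRB, a nuclear receptor, had 36.1 FPKM in iron dextran and 35.3 FPKM in control. The neighbouring genes outside the antigen presentation pathway thus had clear values in both samples. Whether the zeros are failed estimates was not tested. Of the IDs in the table, 13518 carried no symbol, and a second ID for any of these genes would not be found among them. TAPBP lies outside this stretch, between RGL2, a regulator of Ral GTPases with 29.6 FPKM in iron dextran and 32.4 FPKM in control, and a gene without a row.

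**Figure D3:**
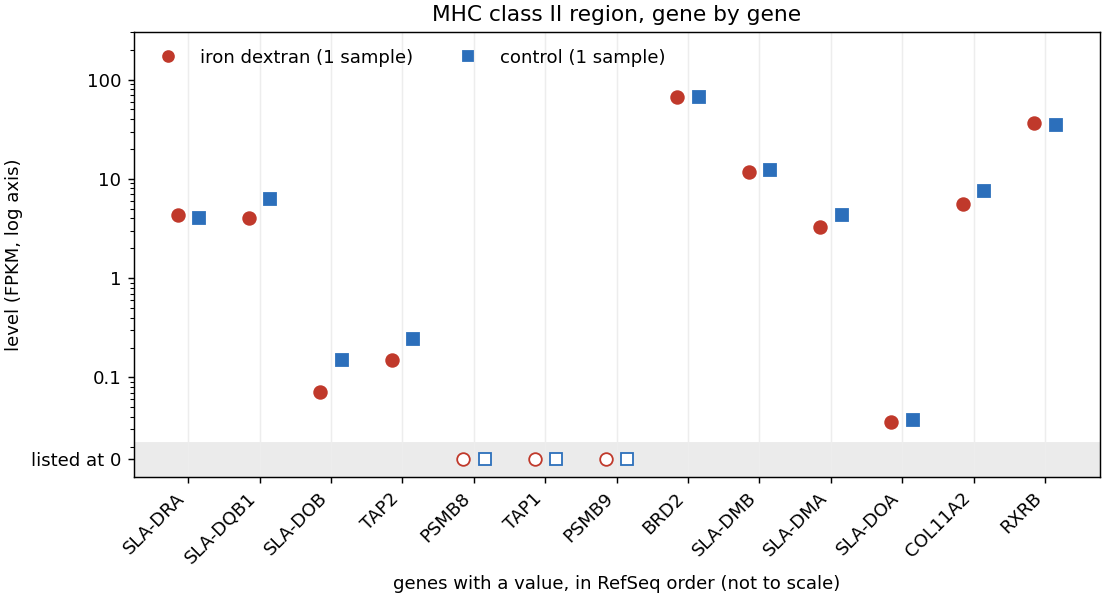
Level in FPKM (log axis) of the 13 genes with a row between SLA-DRA and RXRB, in RefSeq gene order and evenly spaced, in the iron dextran sample (red circles) and the control sample (blue squares). PSMB8, TAP1 and PSMB9 (open symbols) were listed at 0 side by side, TAP2 lay below 1 FPKM, and BRD2, next in the order, had 67.2 FPKM in iron dextran and 66.2 FPKM in control.

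The proteases that prepare class II peptides in endosomes and lysosomes lay on both sides of control. Of 12 listed genes, 9 had a row and all 9 had a mean of at least 1 FPKM, with 4 above 0 and 5 below, a median log2 difference of −0.01 and none past 1.5-fold. CTSS, the protease that cuts the invariant chain in antigen-presenting cells, had 7.85 FPKM in iron dextran and 5.68 FPKM in control, a log2 difference of 0.41. CTSH, a cathepsin that trims from the amino end, had 2.33 FPKM in iron dextran and 3.49 FPKM in control, a log2 difference of −0.43. CTSZ had 12.7 FPKM in iron dextran and 15.6 FPKM in control. With both columns scaled to the same total, 5 of the 9 were above 0 and the median was 0.10, whereas 2 were above 0 and 7 below with the columns centred on their median or rescaled by a trimmed mean.

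CIITA (ENSSSCG00000007901), the transactivator that switches on class II genes, had 0.117 FPKM in iron dextran and 0.0756 FPKM in control. The ratio of iron dextran to control was 1.55, at a level below that of most genes in the table. It was above 6.65% of the IDs with a value over 0 in iron dextran and above 4.15% in control. On the log2(FPKM + 1) scale its difference was 0.06, and the limit on low values kept it out of the counts. CIITA and SLA-DQB1, one of its targets, therefore had FPKM values on opposite sides of control. Among the other class II genes described above, SLA-DRA lay on the side of CIITA, and SLA-DMA and SLA-DMB on that of SLA-DQB1. The number of fragments behind the CIITA values is unknown, so its side of control is uncertain and nothing is read from these directions.

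Most regulators of MHC genes with a mean of at least 1 FPKM had the higher value in the iron dextran sample. On the log2(FPKM + 1) scale each of these was higher by less than 1.5-fold. Of 24 listed genes, CIITA and NLRC5 included, 17 had a row and 13 had a mean of at least 1 FPKM. Of these 13, 10 were above 0 and 3 below, with a median log2 difference of 0.17 and none past 1.5-fold. The median was 0.12 with the columns centred on their median and 0.28 with the columns scaled to the same total. IRF1, a transcription factor downstream of interferon gamma, had 9.10 FPKM in iron dextran and 6.03 FPKM in control, a fold of 1.44 on the log2(FPKM + 1) scale. IRF1 was past 1.5-fold with the columns scaled to the same total, at 1.55, and with smaller pseudocounts, at up to 1.509. JAK1, a kinase of interferon receptors, had 11.8 FPKM in iron dextran and 8.25 FPKM in control. RFX5, a subunit of the factor that binds the X box of class II promoters, had 6.603 FPKM in iron dextran and 5.595 FPKM in control. SOCS1, an inhibitor of interferon receptor signalling, had 2.55 FPKM in iron dextran and 3.098 FPKM in control. NFYA, which binds the Y box, and NFKB1 were listed at 0 in both samples.

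Costimulatory genes, which an antigen-presenting cell needs beside the MHC to activate a T cell, were mostly low. Of 8 listed genes, 5 had a row and 1, CD83, had a mean of at least 1 FPKM. CD83 had 7.86 FPKM in iron dextran and 7.14 FPKM in control, within 1.5-fold. CD86 had 0.656 FPKM in iron dextran and 0.165 FPKM in control, and CD80 had 0.193 FPKM in iron dextran and 0.359 FPKM in control. These 2 ligands of CD28 thus stood on opposite sides of control, both below 1 FPKM.

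**Figure D4:**
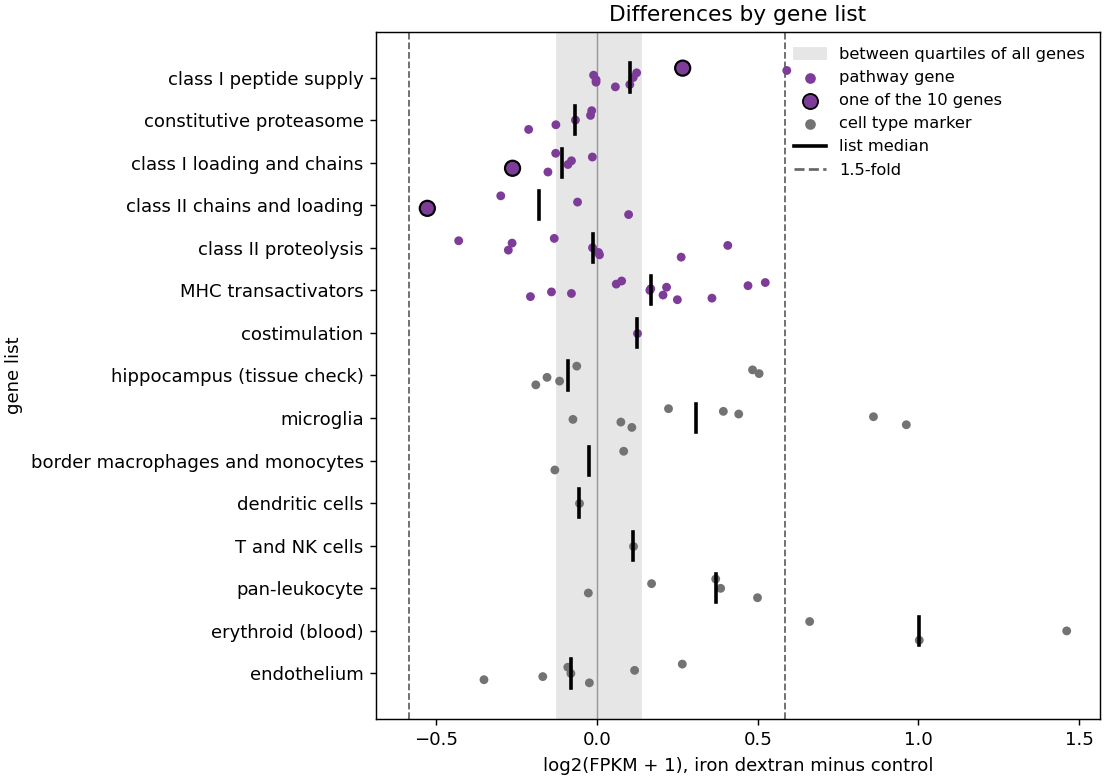
Difference in log2(FPKM + 1), iron dextran minus control, for each gene with a mean of at least 1 FPKM in 7 lists of the antigen presentation pathway (purple) and 8 lists of cell and tissue markers (grey); large outlined points are ERAP1, TAPBP and SLA-DQB1, black bars are list medians, and the grey band runs between the quartiles of all genes. ERAP2 is the single purple point past the dashed 1.5-fold line, while 2 microglial and 3 erythroid markers lie further to the right.

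Cells that could carry these transcripts were followed by their markers. Microglial markers summed to 151 FPKM in iron dextran and 122 FPKM in control over 9 of 15 genes with a row, none of them listed at 0. Of 8 with a mean of at least 1 FPKM, 7 were above 0 and 2 were past 1.5-fold, with a median log2 difference of 0.31. P2RY12, a purine receptor of microglia, had 20.05 FPKM in iron dextran and 9.80 FPKM in control, and GPR34 had 10.1 FPKM in iron dextran and 5.14 FPKM in control. Pan-leukocyte genes, which microglia share, summed to 56.1 FPKM in iron dextran and 44.4 FPKM in control over 5 of 6 genes, with a median of 0.37. CTSS, the protease of antigen-presenting cells described above, and SLA-DRA also had the higher level in iron dextran, whereas SLA-DQB1, SLA-DMA and SLA-DMB had the lower. The part that the number of microglia had in any of these values was not tested.

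Markers of other antigen-presenting cells and of lymphocytes were mostly low, CD14 and VCAN aside, and the lists did not share one direction. Border macrophage and monocyte genes summed to 26.7 FPKM in iron dextran and 26.5 FPKM in control over 8 of 10 genes, with 2 having a mean of at least 1 FPKM and a median of −0.02. Most of that sum came from CD14, which was higher in iron dextran, and VCAN, the only gene of this list that was lower. The other 6 genes with a row had a mean below 1 FPKM, and all had the higher value in iron dextran. Among them, MRC1, a macrophage receptor, had 0.544 FPKM in iron dextran and 0.479 FPKM in control. LYVE1 had 0.344 FPKM in iron dextran and 0.0771 FPKM in control. Dendritic cell genes summed to 3.702 FPKM in iron dextran and 3.87 FPKM in control over 6 of 8 genes, and FLT3 alone had 3.06 FPKM in iron dextran and 3.22 FPKM in control. XCR1 and CCR7 were listed at 0 in iron dextran and stood at 0.0191 FPKM and 0.0746 FPKM in control. T and NK cell genes summed to 2.795 FPKM in iron dextran and 2.802 FPKM in control over 8 of 12 genes, and B cell genes to 0.518 FPKM in iron dextran and 0.327 FPKM in control over 4 of 7. The B cell genes MS4A1 and BLK and the macrophage receptor MARCO were above 0 in iron dextran and listed at 0 in control.

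Transcripts of red blood cells differed between the samples. Erythroid genes summed to 519 FPKM in iron dextran and 189 FPKM in control over 4 of 8 genes, nearly all from the globin HBB, and all 3 with a mean of at least 1 FPKM, HBB, HBM and ALAS2, were past 1.5-fold higher. SLC4A1, a red cell anion exchanger, was at 0.0306 FPKM in iron dextran and listed at 0 in control. The part of blood in the values of the antigen presentation genes was not tested. The T, NK and B cell markers above, which blood also brings, were led by NKG7, at 1.35 FPKM in iron dextran and 1.18 FPKM in control. Endothelial genes, from cells that can express both MHC classes, summed to 39.1 FPKM in iron dextran and 41.2 FPKM in control over 7 of 10 genes, with a median of −0.08 and none past 1.5-fold. The 8 tissue markers with a row summed to 2362 FPKM in iron dextran and 2602 FPKM in control. The 6 of them with a mean of at least 1 FPKM had a median of −0.09. With both columns scaled to the same total, 5 endothelial genes were above 0 and 2 below, with a median of 0.02. Of the tissue markers 4 were then above 0 and 2 below, with a median of 0.025. The median of all genes was 0.10 on that scaling.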

How the data were processed

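Values were FPKM deposited by the authors, with a row for each gene ID and a column for each sample; each column was assigned by the letter it shares with a sample title. Per the submitters' processing notes, cutadapt 1.2.1 and TopHat were used with the builds Sscrofa10.2 and susScr3. The sources used here name neither the program behind the FPKM values nor the annotation, and do not say whether strand was used. FPKM is relative to the library total, so abundant genes can shift the values of others.

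Symbols came from a table of Ensembl IDs and names, which matched 11804 of 25322 IDs; SLA-DRA and SLA-DOB were matched through the names HLA-DRA and HLA-DOB used there. Gene order came from RefSeq on Sscrofa11.1, and no coordinates are given because the builds differ. Sequences were not used here.

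Differences of log2(FPKM + 1), iron dextran minus control, were computed with numpy 2.4.6 and pandas 2.3.3, in Python 3.11.15, and counted from 1.5-fold in genes whose mean FPKM was at least 1. With 1 sample per group no test was made. Columns summed to 850165 FPKM in iron dextran and 924070 FPKM in control. The number of fragments is unknown. Of 587 genes above 0 in both samples with a mean below 0.1 FPKM, 60.8% had ratios within 0.05 log2 units of 1, 2 or 0.5 times a common value of 0.943, which, read as whole fragments, puts the depth of iron dextran at 1.06 times that of control. That value is the peak of these ratios themselves.

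All 10 genes were named whatever their values, and from each list the genes past 1.5-fold and otherwise up to 3 with the largest difference were eligible; genes outside that rule, such as SLA-DOA, TAP2, LNPEP, CD80, CD86, PSME1, RFX5, the neighbouring genes and those listed at 0, were picked with their values in view. The genes, the 7 pathway lists and the 9 marker lists were chosen with earlier results of these data known. Alternatives were pseudocounts of 0.1 and 0.01, no filter, a mean of at least 5, 3 scalings (median, trimmed mean of M values, same total) and a lower and a higher fold limit; a ratio without a pseudocount was added after the data had been seen.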

Additional observations from a re-analysis of the deposited data

How the results depend on the processing

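The count of genes past 1.5-fold stayed at 0 higher in all alternatives run. It was 1 lower, SLA-DQB1, with a pseudocount of 0.1, with a pseudocount of 0.01, with the ratio without a pseudocount and with the lower fold limit, against 0 as reported. SLA-DQB1 then had a difference of −0.62, −0.63 and −0.63 log2 units under the 3 scales with a smaller or no pseudocount. The counts over all genes rose under the same settings. Of 12557 genes, 332 were lower with a pseudocount of 0.1, 357 with 0.01 and 748 with the lower fold limit, against 185 as reported. With the ratio without a pseudocount, 334 of 12495 genes were lower. The median over the members lay between −0.40 (mean FPKM of at least 5, where 2 genes were left) and −0.15 (same column total); without a filter it was 0, since the 3 genes listed at 0 then entered. The same column total moved the median of all genes to 0.10; relative to it the class I loading median was −0.09, the constitutive proteasome −0.05, the class II chains −0.18, class II proteolysis 0.0016 and the MHC regulators 0.18. The directions of ERAP1, TAPBP and SLA-DQB1 were the same under the pseudocounts, filters and scalings that gave them a value. No paired analysis was possible because each group was 1 sample. Depth is unknown, so no counting error can be set beside CIITA or the other genes below 1 FPKM.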
